A study of Homo sapiens with 18 samples.

Results

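The regions described here are the stretches of the human autosomes at which a methylation peak was found in every one of 9 methylated-DNA libraries of K562 cells. K562 is an established human erythroleukaemia line, grown in suspension and in wide use as a model of erythroid and chronic myeloid leukaemia cells. The authors deposited a table of counts over 198884 regions and 1 peak list per library. Regions were chosen by the measured peaks of these same libraries: a region was taken when it lay on chromosomes 1 to 22 and overlapped a peak of all 9 lists by at least 1 bp. This left 47497 regions, 23.9% of the table and 24.8% of its 191688 autosomal regions. All cells carried a B2M:tdTomato transgene, which joins the gene of beta-2 microglobulin, the subunit common to MHC class I complexes, to a red fluorescent protein. The first group was silenced with TALE proteins, the second with dCas9, and the third was untreated, with 3 MeDIP libraries and 3 RNA-seq libraries each. Both treatments mixed 3 plasmids, each encoding its own repressor, and dCas9 also had a plasmid for the guide RNA. Per the series' design text the repressors directed DNA methylation to the B2M promoter. The time of collection and any sorting of the cells are not given in the sources used here. The titles number the libraries of a group as replicates without saying whether they came from separate cultures, so p-values measure only the spread between these libraries. Total MeDIP counts ran from 2529729 to 4492751 per library, of which 55.6% to 57.3% fell in the 47497 regions. The RNA fitted the labelled line: the erythroid genes HBG1, HBG2, HBZ, TFRC, GATA1 and KLF1 had median levels from 70.7 to 3808 CPM (counts scaled to library size), and 10 of 13 markers of other cells stayed at or under 3.15 CPM in every library. The exceptions were EPCAM, CD3D and LYZ, with medians of 111, 23.1 and 23.0 CPM.

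In mammals DNA methylation sits mainly on cytosines followed by guanine, the CpG sites. MeDIP captures sheared DNA with an antibody against 5-methylcytosine, so a fragment needs several methylated CpG sites to be caught, and regions poor in CpG give little signal even when methylated. CpG islands at the starts of active genes are usually free of methylation, while the bodies of transcribed genes and most interspersed repeats carry it. Alu elements, the most abundant family of short interspersed repeats in primates, are rich in CpG and are a main carrier of it.

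Sequences of 4 of the regions, read from the GRCh37 reference on its plus strand, show CpG-rich examples; with 15 to 48 CpG sites in 300 bases they are richer in CpG than the median region. Each line gives the 300-base window with the most CpG sites in that region, in lower case, with every CG in capitals because CpG is what the antibody reads. The CDH4 window lies in an intron at chr20:59858003-59858302 and holds 48 CpG sites in a repeated unit of 39 bases, with 91.6% of bases equal to the base 1 unit further on. The SYCP3 window (chr12:102132745-102133044, 27 CpG sites), the HOXB5 window (chr17:46675035-46675334, 42 CpG sites) and the NNAT window (chr20:36148992-36149291, 15 CpG sites) come from regions within 1 kb of the starts of a germline gene, a homeobox gene and an imprinted gene. The HOXB5 window itself lies further upstream, in a region that ends 787 bp before the HOXB5 start and overlaps HOXB6 and HOXB3.
CDH4: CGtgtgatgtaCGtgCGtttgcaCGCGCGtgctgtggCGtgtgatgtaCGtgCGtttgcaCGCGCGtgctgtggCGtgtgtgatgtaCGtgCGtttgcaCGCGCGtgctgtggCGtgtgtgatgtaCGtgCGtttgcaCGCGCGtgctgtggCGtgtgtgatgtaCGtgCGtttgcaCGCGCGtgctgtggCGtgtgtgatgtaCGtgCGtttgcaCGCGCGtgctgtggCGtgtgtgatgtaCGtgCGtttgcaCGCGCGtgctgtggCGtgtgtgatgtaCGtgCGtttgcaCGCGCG
SYCP3: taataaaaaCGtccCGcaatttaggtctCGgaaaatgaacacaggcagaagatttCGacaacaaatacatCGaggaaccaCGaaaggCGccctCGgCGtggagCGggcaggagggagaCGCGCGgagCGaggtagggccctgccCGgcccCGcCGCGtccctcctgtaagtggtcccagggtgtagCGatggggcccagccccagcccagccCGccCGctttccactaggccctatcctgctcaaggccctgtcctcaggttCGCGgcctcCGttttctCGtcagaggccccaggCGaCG
HOXB5 upstream: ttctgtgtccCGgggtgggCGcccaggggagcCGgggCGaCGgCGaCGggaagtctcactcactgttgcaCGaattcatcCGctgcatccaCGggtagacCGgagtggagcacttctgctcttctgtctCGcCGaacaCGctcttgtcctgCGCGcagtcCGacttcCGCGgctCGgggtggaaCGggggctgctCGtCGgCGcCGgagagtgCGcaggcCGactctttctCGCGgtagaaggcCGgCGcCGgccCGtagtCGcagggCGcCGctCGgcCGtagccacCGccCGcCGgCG
NNAT: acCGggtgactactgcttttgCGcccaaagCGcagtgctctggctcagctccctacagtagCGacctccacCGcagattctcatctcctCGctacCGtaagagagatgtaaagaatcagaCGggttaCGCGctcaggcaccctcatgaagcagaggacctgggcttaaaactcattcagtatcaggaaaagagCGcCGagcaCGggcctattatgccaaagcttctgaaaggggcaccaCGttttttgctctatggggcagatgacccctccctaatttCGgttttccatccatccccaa

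The 47497 regions covered 32.5 Mb. Their median length was 365 bp, with quartiles of 273 and 862 bp, and they ran from 1 to 17222 bp. Every region of the table started at a peak start and ended at a peak end, and all 47497 lay wholly inside a peak of each list, so a region's length is that of the stretch shared by the peaks. Short overlaps were rare: 48 regions were under 10 bp and 923 under 100 bp. The 10207 regions over 1000 bp, 21.5% of the number, held 56.7% of the bases. Regions with a peak in 8 lists numbered 19489 with a median of 254 bp, and regions with a peak in 1 list numbered 30372 with a median of 299 bp.

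Counts per length are given as CPM per kb, with library sizes scaled by TMM (edgeR's normalization) and the mean taken over the 9 libraries. The peaks that chose the regions were called on the same libraries, so these levels are a description. The median was 23.1 CPM per kb with quartiles of 16.7 and 30.3, against 20.5 for regions with a peak in 8 lists, 4.37 for regions with a peak in 1 list and 14.1 for all autosomal regions. In single libraries the median of the 47497 regions lay between 21.9 and 22.7 CPM per kb, in the dCas9 replicate 2 and TALE replicate 1 libraries. The count behind this was small: the median region had 21 counts in TALE replicate 1 and 37 in dCas9 replicate 2. The same libraries had the fewest and the most peaks, 87978 and 120603. Among the 19489 regions just outside the rule, the missing list was TALE replicate 1 in 4528 (23.2%) and dCas9 replicate 2 in 505 (2.59%).

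The deposited peaks under these regions were close in height to those of the lists as a whole, which include them. The authors' median fold over background at the 47497 regions was 2.43 over the lists, and 2.39 to 2.46 in single lists. Medians over all peaks of a list lay between 2.38 and 2.43, a little lower in every list. Peaks outside the 47497 regions were not summarized separately. In 69.6% of the regions at least 1 list gave a −log10 q under 1, and in 100 regions every list gave 5 or more. Of those 100, 40 lay on chromosome 5 and 10 between 416666 and 522942 on chromosome 12. Authors' folds were highest near the end of chromosome 5, where chr5:203059-203928, in an exon near LRRC14B, had at least 52.9 in every list. Its count density of 24.7 CPM per kb was close to the median of the 47497 regions. The authors' lists and the counts thus ranked these regions differently, and the control behind the authors' fold is not given in the sources used here.

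The regions were richer in CpG than those with a peak in fewer lists, apart from regions with a peak in 8. They held a median of 3.14 CpG per 100 bp, against 2.81 in all autosomal regions, 3.25 in regions with a peak in 8 lists and 2.04 in regions with a peak in 1 list. GC content was nearly the same, at 51.5% and 51.3% in the first pair. The ratio of observed to expected CpG was 0.495, against 0.453 in all autosomal regions and 0.372 in regions with a peak in 1 list. Island-like sequence, meaning at least 200 bp with a GC content of at least 50% and a ratio of at least 0.6, made up 15.5% of the regions and 10.6% of all autosomal ones. Among regions of 200 bp or more, the count density rose from a median of 13.4 CPM per kb at 1 to 2 CpG per 100 bp to 27.3 at 4 to 6, and was 16.4 in the 55 regions at 8 or more. The 730 regions with under 1 CpG per 100 bp stood outside this order, at 23.0 CPM per kb. Length changed along these bins too, with a median of 1123 bp at 1 to 2 CpG per 100 bp and 316 bp at 4 to 6. The parts of CpG and of length in the density were not tested.

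Of the 5 regions with the most CpG per 100 bp among those of at least 300 bp, 4 lay in introns and are described here; their most CpG-rich windows repeated a short unit. The other was intergenic, on chromosome 8, at 12.2 CpG per 100 bp and 15.5 CPM per kb. The CDH4 region (chr20:59857864-59858323), in the gene of a cadherin, had 12.8 CpG per 100 bp and 7.51 CPM per kb. The IGSF9B region (chr11:133809645-133810568), in an adhesion gene of the immunoglobulin superfamily, had 11.7 and 19.7 CPM per kb, with a unit of 84 bases. The NXN region (chr17:713206-713585), in the gene of nucleoredoxin, had 11.3 and 34.6 CPM per kb with a unit of 28 bases, and the VIPR2 region (chr7:158893923-158894537), in a neuropeptide receptor gene, had 10.6 and 26.5 CPM per kb with a unit of 52 bases.

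Alu sequence was common in the regions. After sequences of several regions had been read, 2 motifs of 9 bases were chosen, GTAATCCCA and GGCTCACGC, which lie close together in the Alu consensus and do not overlap. They were searched on both strands, as TGGGATTAC and GCGTGAGCC on the other one. GTAATCCCA occurred in 62.2% of the 47497 regions and GGCTCACGC in 33.4%, and 66.3% (31500) had either. The 4 printed windows hold neither, so they do not stand for the typical region. At matched length, 300 to 399 bp, 70.2% of the 9674 regions had either motif, against 63.8% of regions with a peak in 8 lists, 46.6% of those with a peak in 1 list and 57.4% of all autosomal regions. Consecutive 300-base tiles of the autosomes had either motif in 8.75% of cases. Of the 841326 copies of GTAATCCCA on the autosomes, 6.32% lay in the 47497 regions, which hold 1.13% of the sequence. Among regions of 200 to 400 bp, those with either motif had a median of 26.9 CPM per kb and 3.69 CpG per 100 bp, and those with neither had 24.1 and 3.36. Exons held 6.99% of the former and 19.1% of the latter.

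Most regions were intronic. The place of each region was read from the GENCODE 44 annotation lifted to GRCh37, as within 1 kb of a protein-coding start, else exon, else intron, else intergenic. Introns held 64.2%, exons 17.6% and intergenic sequence 15.9%, against 63.8%, 14.4% and 19.9% of all autosomal regions. In regions with a peak in 1 list the intergenic share was 26.6%. Starts held 2.31% of the regions (1096), against 1.88% of all autosomal regions. The exact 95% interval was 2.17% to 2.45%, which covers counting error only. It takes regions as independent draws, although they share the same libraries. Length was not matched here, and a longer region reaches a start or exon more easily. The regions were longer than all autosomal ones, with medians of 365 and 287 bp. Their start share was 1.85% from 200 to under 300 bp and 3.80% at 2000 bp or more. Median length was 716 bp in exons and 340 bp in introns. Island-like sequence made up 31.6% of the regions at starts and 9.58% of those in exons.

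Across chromosomes the regions followed gene density. The autosomes as a whole had 16.5 regions per Mb. Chromosome 19, which has the most genes per length, had 42.9, and chromosome 13, which has the fewest, had 5.29. Over the 22 autosomes the number per Mb correlated with protein-coding genes per Mb at Pearson's r of 0.920 and Spearman's rho of 0.859. This is a description: the chromosomes share the same libraries, and base composition and repeats also vary with gene density. The table as a whole differed in the same direction, with 7927 regions on 59.1 Mb of chromosome 19 and 4443 on 115 Mb of chromosome 13. Of these, 32.0% and 13.7% had a peak in all lists. This share was 24.2% on chromosome 17, at 14.6 genes per Mb, and 31.3% on chromosome 21, at 4.76. The correlation for all regions of the table was not computed. The last 1 Mb at either chromosome end held 3.26% of the regions, 2.60% of the table's regions and 1.53% of the sequence. In windows of 1 Mb the median number was 9, and 788 of 2897 windows had none.

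Among 1-Mb windows with 10 or more of the regions, those with the highest median count density held the genes of the BCR-ABL1 fusion. K562 carries this fusion of the kinase gene ABL1 on chromosome 9 with BCR on chromosome 22 in many copies per cell, and lacks CDKN2A, the gene of the cell-cycle inhibitor p16. Among windows with 10 or more of the regions, the highest medians were those of chr9:133000001-134000000 at 62.5 CPM per kb and chr22:23000001-24000000 at 59.7. The window with the most regions, chr22:21000001-22000000, had 120 and a median of 49.9 CPM per kb. Within ABL1 (chr9:133588430-133763062) 33 of 36 regions of the table had a peak in all lists, with a median of 62.5 CPM per kb and a range of 27.7 to 154. Within BCR (chr22:23521891-23660224) this was 23 of 27, with a median of 61.9 and a range of 39 to 139. CDKN2A, CDKN2B and MTAP on chromosome 9 held 0 regions of the table. These genes were chosen after the densities were seen. Copy number and methylation per copy cannot be told apart in these counts.

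The largest counts per region came from long regions and from shorter ones of high density. The region with the largest count, chr1:16948338-16964393 at the pseudogene CROCCP2, was 16056 bp long and had 749 CPM, or 46.6 CPM per kb. A region in an intron of PRKCA, the gene of a protein kinase C (chr17:64792773-64795805), had 731 CPM over 3033 bp, or 241 CPM per kb. One at chr17:41399138-41401156 had 671 CPM over 2019 bp, or 333 CPM per kb. Both were chosen after their values were seen. The longest region, chr1:228744452-228761673, spanned 17222 bp of the 5S ribosomal RNA gene array with 8.80 CpG per 100 bp, yet had 1.10 CPM per kb. The LINC00665 region (chr19:36783221-36797132) likewise had 6.84 CpG per 100 bp and 1.5 CPM per kb. Both of these had near-identical copies elsewhere, 3 and 13 of them at 95% identity over 80% of their length. The 5 highest densities, at SMURF1, ZNF213-AS1, ATP4A, RBM25 and FBXL12, all belonged to regions of 1 or 2 bp, where a density per kb has little meaning.

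Of the 47497 regions, 412 had 0 counts in all 9 libraries despite a peak in every list. The authors' median fold at these peaks was 2.43, the same as over all 47497 regions. Of the 407 that were at least 100 bp long, 400 (98.3%) had a near-identical copy elsewhere in the genome, against 3.84% of regions with over 50 counts in all. The share was 95.7% for regions with 1 to 9 counts. Chromosome 16 held 83 of the 412, chromosome 1 held 65 and chromosome 15 held 40. Genes nearest to them included members of copied families, with 17 regions nearest to REXO1L1, 11 to TP53TG3C, 9 to NPIPB3 and 7 to SMN2. How the authors treated reads with several equal matches when they counted and when they called peaks was not tested. Counts in copied sequence are uncertain for the same reason.

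Gene bodies held more of these regions the higher the RNA of the gene. RNA is a readout that the choice of regions did not use. Protein-coding genes with a name in the RNA table (17209 of 19222, 89.5%) were split into those with 0 RNA counts (785), those under the filter on low counts (6610, median 0.0906 CPM) and tertiles of the rest, with medians of 5.07, 28.4 and 106 CPM. A body ran from 1 kb past the start to the end of the gene. At least 1 region lay in 18.5% of bodies under the filter, in 58.3%, 79.8% and 83.9% of bodies in the lower, middle and upper tertile, and in 14.3% of bodies with 0 counts. Per 100 kb of body there were 0.386 regions under the filter and 2.42, 5.45 and 7.13 in the tertiles, a ratio of 18.5 between the upper tertile and the genes under the filter. The same ratio was 15.1 for regions with a peak in 8 lists, 3.53 for those with a peak in 1 list and 9.51 for all regions of the table. No test was made over genes, which are not replicates and whose bodies overlap in places.

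Sequence content of the bodies moved with RNA too, but less. Bodies under the filter held 26.0 copies of the Alu motif GTAATCCCA per 100 kb and those of the upper tertile 51.2, a ratio of 1.97. CpG sites numbered 0.992 and 1.13 per 100 bp. Of the motif copies themselves, 1.21% lay in one of the 47497 regions in bodies under the filter, 6.81% in the lower tertile, 13.3% in the middle and 16.8% in the upper one. The 496 bodies with 0 counts, median length 5.82 kb against 29.4 kb over all genes, did not follow the order, with 6.36% of copies and 2.07 regions per 100 kb. The part of repeat content in the difference in region number was not tested beyond these values.

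Bodies of single genes differed widely, as examples from the gene lists show, which were picked after their values were seen. The regions in EPB41, the gene of red-cell membrane protein 4.1, numbered 31 over 232 kb of body. ANK1, the gene of erythroid ankyrin, had 16 over 243 kb, and SLC25A37, the mitochondrial iron importer of red-cell precursors, had 10 over 45.5 kb. TFRC, coding for the transferrin receptor, had 0 despite 776 RNA CPM. Of 10 genes of the DNA methylation machinery 9 had a region, with 13 in the maintenance methyltransferase gene DNMT1 and 13 in the demethylase gene TET1, and 0 in DNMT3L, at 0.0648 RNA CPM. Of 30 genes of other blood lineages 8 had a region, and PAX5, a B-cell regulator with 200 kb of body and 0.0792 RNA CPM, had 0. Over all protein-coding genes 9480 of 19222 (49.3%) had a region. Among bodies of at least 20 kb, BCL7B had the densest set, with 7 regions in 20.3 kb, or 34.4 per 100 kb, and WDR5, a subunit of histone methyltransferase complexes, had 8 in 23.6 kb.

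Around starts of genes with measurable RNA the regions thinned out. Of 19222 protein-coding starts, 1146 (5.96%) had a region within 1 kb and 102 (0.531%) had one on the start base. In the bin from 250 bp upstream to the start, 0.122% of upper-tertile genes, 0.214% of middle-tertile genes, 0.703% of lower-tertile genes and 0.983% of genes under the filter had a region. Genes with 0 counts showed no such dip, with 1.53% in this bin and 1.15% and 2.17% in the outermost bins upstream and inside the gene. The order was nearly the opposite 5 kb inside the gene, with 9.50%, 9.94%, 6.18% and 1.13% in the outermost bin. Upstream, the upper-tertile profile reached its top of 11% between 1750 and 1500 bp before the start. Genes under the filter stayed between 0.772% and 1.62% throughout. The dip was not particular to regions with a peak in all lists. Any region of the table lay between 1750 and 1500 bp before the start in 19.2% of upper-tertile genes. In the bin from 250 bp upstream to the start this share was 0.275%.

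Genes with a region within 1 kb of the start did not stand apart in RNA level where RNA was measurable. On the log2(CPM + 0.5) scale their median was 4.82 (731 genes) against 4.84 for all 9814 genes past the filter, and it was lower in 6 of 9 RNA libraries. Genes whose start had a region of the table without a peak in all lists had a median of 4.21, and genes with no region had 4.93. More of the genes with a region at the start passed the RNA filter, 73.1% against 57.0% of all. Upper-tertile genes with a region on the start base were PDE4DIP (338 CPM), ABL1 (138 CPM) and TNFAIP8 (53.3 CPM), which were chosen after their values were seen. Genes have several starts, and the annotated one need not be the one in use.

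Imprinted genes carry methylation on the copy from 1 parent, set in the germ line. Of 41 imprinted genes with a position, 7 (17.1%) had a region within 1 kb of the start, against 5.96% of all protein-coding genes. They were WT1, MEST, NNAT, DLK1, NAP1L5, PEG10 and SGCE, the last pair sharing a region. The MEST region (chr7:130132752-130133248), 826 bp inside the gene of a hydrolase expressed from the paternal copy, had counts of 54, 44 and 63 in untreated, 48, 62 and 71 in TALE and 43, 61 and 42 in dCas9 libraries. The WT1 region (chr11:32457855-32461388), 770 bp upstream of a zinc-finger regulator, spanned 3534 bp with 171, 76 and 143 counts in untreated, 110, 145 and 207 in TALE and 145, 178 and 141 in dCas9 libraries. In both the groups overlapped in counts. The NNAT region (chr20:36148772-36149460), from which the printed window comes, lies 192 bp upstream of a gene at 0.0458 RNA CPM, and DLK1, a Notch-family ligand, had a region 556 bp upstream at 109 RNA CPM.

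Germline genes, many of which are methylated and silent in body cells, had a region at 4 of 34 starts (11.8%). The region of SYCP3, which codes for a protein of the meiotic synaptonemal complex, covered the start base itself (chr12:102131935-102133736). Its counts were 79, 86 and 99 in untreated, 97, 73 and 92 in TALE and 80, 111 and 65 in dCas9 libraries, and its RNA was 0.227 CPM. HORMAD1, also of meiotic chromosomes, had a region 456 bp inside at 0.141 RNA CPM. ADAD1 had one 592 bp upstream with under 20 counts in every library, and that of BRDT was 4 bp long; neither passed the filter for the test.

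The HOX genes, homeobox regulators of body axis and blood cell identity, had a region at 5 of 39 starts (12.8%), of which 4 were in the HOXB cluster. The HOXB5 region (chr17:46671928-46675859) spanned 3932 bp at 5.37 CpG per 100 bp, and the HOXB6 region (chr17:46683231-46685810) 2580 bp at 3.72. RNA was 1.76 CPM for HOXB5 and 2.49 CPM for HOXB6, and 13 and 15.3 CPM for HOXB7 and HOXB8. The zinc-finger genes of chromosome 19, a large family of KRAB repressors in the main, had a region at 33 of 240 starts (13.8%), with those of ZNF101, ZNF808, ZNF586 and ZNF57 the highest in CPM. Over all protein-coding genes the share was 5.96%, but chromosome 19 also had 42.9 of the regions per Mb against 16.5 over the autosomes. Genes of other blood lineages had a region at 0 of 30 starts and those of the DNA methylation machinery at 0 of 10. Protocadherin clusters had 0 of 53, although 22 of 53 had a region in the gene. Tumour suppressor genes had 2 of 29: CDH1 (E-cadherin, 0.0796 RNA CPM) with a region 234 bp upstream and DAPK1 (a death-associated kinase, 16.4 RNA CPM) with one 870 bp upstream.

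No region with a peak in all lists lay in the B2M gene. The region of the table at the B2M promoter, chr15:45003405-45003721, had a peak in 2 lists and is not among the 47497. Its counts were 0, 0 and 0 in untreated, 7, 10 and 9 in TALE and 14, 13 and 16 in dCas9 libraries. The nearest of the 47497 lay 990 bp upstream of SPG11 on one side of B2M and between genes, nearest to TRIM69, on the other. Counts of the SPG11 region were 42, 16 and 14 in untreated, 27, 15 and 26 in TALE and 32, 42 and 25 in dCas9 libraries, so its groups overlapped. Of 13 neighbouring genes 5 had a region at the start: SPG11, SHF, TERB2, and DUOXA2 with DUOX2, which share one. In the MHC class I pathway it was 2 of 11, HLA-E and the peptide transporter gene TAP2.

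The treated and untreated cells were then compared at the 47497 regions. Of these, 44383 (93.4%) passed the filter on low counts, against 54.1% of all autosomal regions. The fit ran over all 105652 regions of the table that passed, with edgeR's quasi-likelihood test. A peak in all 9 lists favours regions that differ little between groups, so the choice itself bears on how many differences can be found. The coefficient of variation over the 9 libraries had a median of 22.6%, where counting alone would give 18.4%. In tested regions outside the choice it was 36.2%, where counting alone would give 27.1%. Such coefficients add as squares, so their plain difference is not the spread beyond counting.

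With Benjamini-Hochberg adjustment over all tested regions, 0 of the 44383 were called at 0.05 in TALE against untreated, where 0% of all regions tested were called. In dCas9 against untreated it was 0, with 0.000947% of all regions called, in TALE against dCas9 0, with 0.000947% of all called, and in the mean of both treatments against untreated 0, with 0% of all called. DESeq2 called 0 of them in each comparison too. The smallest adjusted p were 0.729, 0.770, 1.00 and 0.342 in this order. Without adjustment, a p under 0.05 was reached by 1691 (3.81%), 1700 (3.83%), 1546 (3.48%) and 1757 (3.96%), against 4.74%, 4.69%, 4.47% and 4.88% of all regions tested. The comparisons with untreated share the untreated libraries.

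Sizes of difference are given as a description, since TMM scaling centres the fold changes near 0 and a peak in every list selects against large ones. In TALE against untreated the median log2 fold change was 0.01, with 5% of regions under -0.48 and 5% over 0.49. In dCas9 against untreated the values were 0.01, -0.48 and 0.48, and in TALE against dCas9 0.00, -0.47 and 0.49. Of the 44383, 150 (0.338%), 140 (0.315%) and 103 (0.232%) differed by more than 1 on the log2 scale, against 2.43%, 2.3% and 2.3% of all regions tested. For both treatments against untreated it was 56 (0.126%), against 1.21% of all. The median standard error of a log2 fold change was 0.30 in each of the 3. Standard errors here were derived from edgeR's test statistic, whose estimate of spread is largely shared over the 105652 regions tested. They are thus not the spread of the libraries at a single region alone. Nor are they a limit of detection, since much larger differences were not called at this depth. The TM2D1 region below, at 1.24 ± 0.31 in TALE against untreated, is an example. Libraries of the groups did not overlap at 10.1%, 10.1% and 9.79% of the regions, where the shares of all regions tested were 10.2%, 10.3% and 9.97%. For both treatments against untreated it was 2.51%, where the share of all was 2.45%.

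The region with the smallest p against untreated lay in an intron of CNTNAP2, a large neuronal adhesion gene (chr7:148028201-148028861). Its levels were 17.5, 20.4 and 34.9 CPM in untreated, 37.4, 34.5 and 54.4 in TALE and 46.2, 36.4 and 37.1 in dCas9 libraries. Untreated replicate 3 overlapped the TALE libraries, and all 3 dCas9 libraries were above the untreated ones. The log2 fold change was 0.81 ± 0.18 (SE, n = 3 per group) in TALE, with an adjusted p of 0.729 in edgeR's test, and 0.70 ± 0.19 in dCas9, with an adjusted p of 0.908. Without untreated replicate 3 it was the only one of these regions called, at 1.18 and an adjusted p of 0.0121 in TALE and at 1.13 and 0.00461 in the mean of both treatments.

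Other regions with small p did not pass either. The TM2D1 region (chr1:62181198-62181787), in an intron of a gene for a membrane protein that binds amyloid-beta, had 7.07, 5.52 and 4.67 CPM in untreated and 12, 14.1 and 14.6 in TALE libraries. The groups did not overlap, and the log2 fold change was 1.24 ± 0.31 with an adjusted p of 0.772. The ACVR1B region (chr12:52387380-52388610), in an exon of an activin receptor gene, had 13.5, 8.91 and 9.97 CPM in untreated and 21.2, 22.8 and 20.6 in TALE libraries. Here too the groups did not overlap, at 0.97 ± 0.26 and an adjusted p of 0.772. The dCas9 libraries of this region spread from 6.48 to 16.1 CPM.

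In dCas9 against untreated, the PTPRN2 region (chr7:157582367-157583010), in an intron of a receptor phosphatase gene, had 15.4, 19.1 and 11.5 CPM in untreated and 28.4, 30.6 and 24.6 in dCas9 libraries. The log2 fold change was 0.89 ± 0.21 with an adjusted p of 0.770. The RNF2 region (chr1:185039847-185040167), in an intron of a Polycomb ubiquitin ligase gene, had 12.3, 8.49 and 10.9 CPM in untreated and 4.74, 4.93 and 2.59 in dCas9 libraries. Its dCas9 libraries were the lowest of the 3 groups, at -1.33 ± 0.35 and an adjusted p of 0.908, with TALE libraries between 6.28 and 9.70 CPM.

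Between the treatments, a region 2760 bp upstream of CENPF, a kinetochore gene (chr1:214771717-214773778), had 30.5, 25.5 and 25.3 CPM in TALE and 38.3, 45.7 and 41.0 in dCas9 libraries, a difference of -0.64 ± 0.17. The non-coding gene LINC01237 had the reverse at chr2:242910797-242912497, with 37, 35.3 and 32.1 against 20.9, 23.6 and 20.3 CPM and 0.67 ± 0.19. Untreated libraries of the LINC01237 region lay across the range between the treatments, at 22.1 to 32.3 CPM. In both regions edgeR's adjusted p was 1.00.

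**Figure D1:**
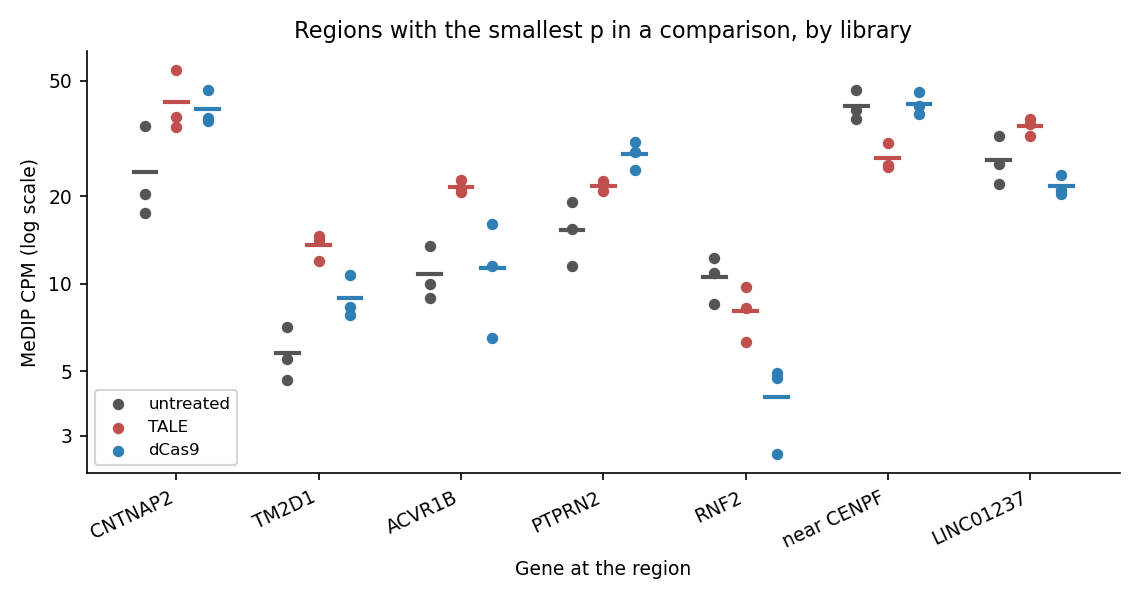
MeDIP CPM (log scale) in each library for regions with the smallest p in a pairwise comparison of the groups. Each point is 1 library and each bar a group mean; in the CNTNAP2 region untreated replicate 3 lies at 34.9 CPM, away from 17.5 and 20.4 in the others.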

How the data were processed

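MeDIP-seq and RNA-seq were available for K562 cells in 3 groups, with 3 libraries per group and assay. The deposited tables hold raw counts per region or per gene, and the deposited peak lists of each MeDIP library give each peak a score, a fold over background, and p and q on the −log10 scale, all made by the authors. Per the submitters' processing notes, BWA 0.7.5, STAR 2.3.0, Picard, MACS2, bedtools and the build hg19 were used; settings and the role of each are not given in the sources used here. Per the labels' protocols, libraries were pooled before capture, which limits differences between captures.

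Overlaps were computed from the lists, and CpG content, gene positions (GENCODE 44) and sequences came from GRCh37. Table starts count from 0 and are given here from 1. Counts of all 198884 regions went into edgeR 4.0.16 (R 4.3.3): TMM, filterByExpr with a minimum of 10 counts, 1 model of group means over 9 libraries, quasi-likelihood test, Benjamini-Hochberg over the 105652 regions tested, and a call at 0.05. DESeq2 1.42.0 was an alternative. The fit was tested on simulated data. Copies were searched with minimap2 2.31 for regions of at least 100 bp. The RNA filter and CPM used the same settings on total RNA counts of 8460076 to 12050554.

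Regions named by rule were those with the highest density, the greatest length, the most CpG, the smallest p, the lowest CPM, nearest to B2M, or at starts of listed genes. The regions, gene lists and tests were chosen with earlier results of these data known; the Alu motifs, the fusion and deletion genes and the regions with the largest counts were picked after their values were seen. Some of the items named by this rule are not reported here.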

Additional observations from a re-analysis of the deposited data

Results flagged for a closer look

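Outside chromosomes 1 to 22, which the choice of regions left out, 1147 regions also had a peak in all 9 lists. Of these, 872 lay on chromosome X, 13.9% of its 6253 regions in the table, with a median of 17.6 CPM per kb. The other 275 lay on further sequences, 29.2% of their 943 regions, with a median of 8.91 CPM per kb.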

How the results depend on the processing

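Counts of called regions were 0 in 69 of 71 combinations of an alternative setting with a comparison, and 1 in the other 2. These are not separate fits: each fit served several comparisons, and the settings on cover and peak q reused the main fit. The exceptions were the CNTNAP2 region without untreated replicate 3, in TALE and in both treatments against untreated, so counts ranged from 0 to 1 when each library was left out. Replicate numbers did not pair the libraries (correlations of same-numbered deviations between -0.0047 and 0.0040), and with the replicate number as a block 0 regions were called in each of the 4 comparisons. The number of regions was 100 with peaks of −log10 q of at least 5, and 48002 to 52025 with each list left out. With at least 50% of the region covered by each list it did not change. The median density was 19.7 CPM per kb on total counts, and 26.1 for regions up to 500 bp against 16.8 for longer ones; length and density are thus linked. The share at starts was 6.39% within 2 kb and 0.196% on the start base. The median RNA level at starts was 3.73 with no filter on low counts, against 1.96 for all genes, and so stood above them there. Depth limits the single regions: the common biological coefficient of variation was 0.19, beside 21 to 37 counts per median region and library.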
